A study of Oryzias latipes with 10 samples.

Results

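The 6 genes examined here, *yap1*, *yap1b*, *tead1b*, *amotl2a*, *amotl2b* and *lats2*, encode the Yap co-activators of the Hippo pathway and proteins that bind them on DNA, hold them in the cytoplasm or phosphorylate them. They were chosen by name, as the rows of the count table whose Ensembl identifiers the tables of the study pair with these symbols, and make up 6 of the 24365 genes counted. All 6 had a mean count of at least 10 per library and so were among the 16513 genes tested. The counts come from RNA-seq of whole medaka (*Oryzias latipes*) embryos at stage 16, in mid-late gastrulation.

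The *yap* double mutants (3 libraries) are homozygous for deletion alleles of *yap1* and *yap1b*, given as yap-/- and yap1b-/- in the labels. The *yap* single mutants (3 libraries) are labelled yap-/-, and the label leaves their *yap1b* genotype unstated. The WT embryos (4 libraries) are labelled wild type, and the wild-type strain of the study is iCab. All groups share the stage, the tissue (the whole embryo) and the absence of any treatment in the labels. Each library pools RNA of embryos that were genotyped one by one from their own DNA, so that the p-values below describe the spread between such pools. In bulk RNA of whole embryos, fewer cells of a type and less RNA per cell cannot be told apart.

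Yap proteins are transcriptional co-activators without a DNA-binding domain of their own. When the Hippo kinases Lats1 and Lats2 phosphorylate them, they stay in the cytoplasm, and when they are not phosphorylated they enter the nucleus and activate genes through Tead transcription factors. Among the genes that Yap and Tead are known to activate in mammalian cells are *LATS2* and *AMOTL2*, whose products in turn restrain Yap, so that the pathway contains negative feedback. Medaka carries 2 *yap* genes and 2 *amotl2* genes.

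The total of gene counts per library ranged over 29521935–30627401 (double mutants), 22053738–37776961 (single mutants) and 28978596–38383959 (WT). WT 4 stood apart from the other WT libraries: across genes, which are not independent replicates, its log2 CPM correlated at r = 0.952 with each of WT 1, WT 2 and WT 3, at 0.958 to 0.970 with the double mutants and at 0.941 to 0.954 with the single mutants. The main model has a term for a library set (WT 1–3 with the single mutants, WT 4 with the double mutants), which no label gives and which was read from marker values in source data of the study. With this term the double mutants are in effect compared with WT 4 alone, so each of the 6 genes is also given in every library and in the model without the term. In fits that leave out 1 library, WT 4 is never left out of the double mutant comparison with the term. Libraries of the other set enter a comparison with WT only through the normalization and the spread estimated over all libraries. Leaving them out thus hardly moves its fold change. Of all 16513 genes tested, 2.31% passed an adjusted p of 0.05 in the double mutants against WT and 0.69% in the single mutants against WT. Without the set these shares were 24.1% and 0.557%.

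All 6 genes were lower in every double mutant library than in any of the 4 WT libraries, and 5 of the 6, all but *yap1b*, were lower in every single mutant library than in any WT library. Genes lower in this way made up 15.7% of all genes tested for the double mutants, 6.03% for the single mutants and 3.75% for all 6 mutant libraries together. In edgeR's quasi-likelihood test 5 of the 6 fell in the double mutants, where 2.02% of all genes fell, and 3 of the 6 (*yap1*, *amotl2a* and *amotl2b*) fell in the single mutants, where 0.6% of all genes fell. The median log2 fold change of the 6 was −1.26 in the double and −0.85 in the single mutants, against medians of 0.01 and 0.02 over all genes tested. The study had already listed *yap1*, *yap1b*, *tead1b*, *amotl2a* and *amotl2b* as changed in the double mutants of these data, and *yap1* and *yap1b* are the mutated genes. Its discussion also places *lats2* in a group of common Yap target genes that it describes as downregulated in the mutants. These counts and medians therefore describe the 6 genes, and nothing is read from them about the pathway as a whole.

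**Figure D1:**
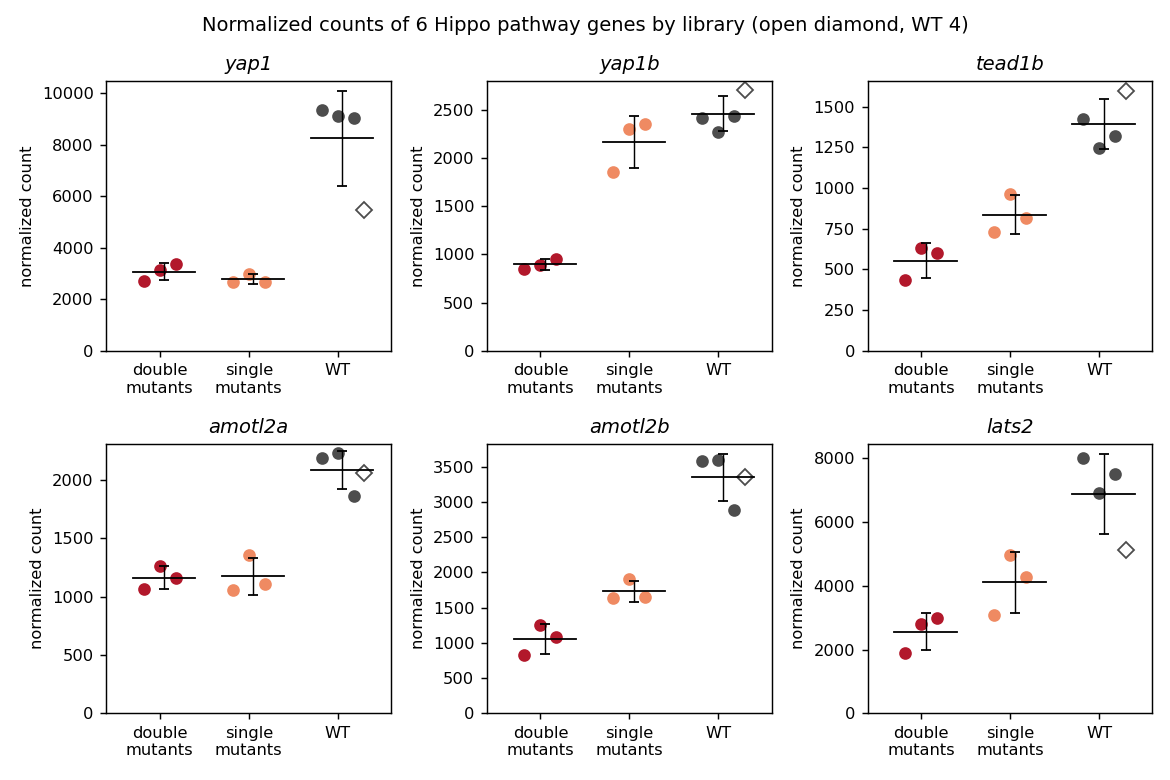
Normalized counts (y axes, from 0) of the 6 genes in each library, with the mean (line) and SD (bar) of the double mutants (n = 3), single mutants (n = 3) and WT (n = 4). All double mutant libraries lie below all WT libraries in each panel, *yap1b* in the single mutants lies close to WT, and WT 4 (open diamond) is far below the other WT libraries for *yap1*, at 5470 against 9028 to 9358.

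*yap1*, one of the co-activators and the gene mutated in both mutant groups, lies on chromosome 13 (6489854 to 6520557, RefSeq annotation of ASM223467v1; Ensembl identifier ENSORLG00000002708). It had 2707, 3148 and 3356 normalized counts in the double mutants, 2657, 2993 and 2656 in the single mutants, and 9358, 9131, 9028 and 5470 in WT 1 to WT 4. The mutant libraries overlap each other, none reaches a WT library, and WT 4 lies between the mutants and the other WT libraries. By edgeR *yap1* fell in both groups, by a log2 fold change of −0.83 in the double mutants (adjusted p = 0.0210, SE 0.15) and of −1.73 in the single mutants (adjusted p = 0.000768, SE 0.11). The double mutant mean was 56.1% of WT 4 and 33.5% of the mean of WT 1–3, and the single mutant mean 30.2% of the mean of WT 1–3. The fold change in the double mutants thus depends on which WT libraries serve as control, and without the set it was −1.43 (adjusted p = 0.00193), beside −1.57 (adjusted p = 0.00589) for the single mutants. Its call was lost when WT 1, WT 2, WT 3 or double mutant 2 was left out (highest adjusted p 0.0631), whereas the call in the single mutants was kept in all 10 such fits. Without WT 1, WT 2 or WT 3 the double mutant fold change stayed at −0.83, and what moved was its SE and p-value. Reads were counted over the whole gene, so that transcripts that carry a deletion can still be counted, and the level of *yap1* or *yap1b* is not by itself a check of the genotype.

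*yap1b*, the second *yap* gene of medaka, lies on chromosome 14 (12999434 to 13012139; ENSORLG00000005573). It had 846, 887 and 955 normalized counts in the double mutants, 1856, 2296 and 2349 in the single mutants, and 2416, 2270, 2434 and 2704 in WT 1 to WT 4. The double mutants form a group of their own below all other libraries, while single mutants 2 and 3 lie within the range of WT 1–3 and single mutant 1 below it. *yap1b* fell in the double mutants (log2 fold change −1.59, SE 0.15, adjusted p = 0.00180), where the mean was 33.1% of WT 4. This call was kept in all 9 fits that left out 1 library other than WT 4. In the single mutants the mean was 91.3% of that of WT 1–3 and the gene did not pass the test (log2 fold change −0.13, 95% interval −0.39 to 0.13, adjusted p = 0.702). Without the set the values were −1.45 (adjusted p = 0.000413) for the double and −0.18 (adjusted p = 0.779) for the single mutants. The interval with the set reaches to a level at most 0.13 higher than in WT on the log2 scale.

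*tead1b*, a gene of the Tead family of DNA-binding partners of Yap, lies on chromosome 3 (20223837 to 20275721; ENSORLG00000007439). It had 433, 630 and 600 normalized counts in the double mutants, 730, 965 and 814 in the single mutants, and 1424, 1247, 1318 and 1600 in WT 1 to WT 4. The 3 groups did not overlap and lay in the order double mutants, single mutants, WT. *tead1b* fell in the double mutants (log2 fold change −1.53, SE 0.21, adjusted p = 0.00753), a call kept in all 9 fits that left out 1 library other than WT 4. The single mutant value of −0.67 (SE 0.16, adjusted p = 0.144) did not pass edgeR's test, but DESeq2 with the set called it (adjusted p = 0.0104). Without the set edgeR gave −1.33 (adjusted p = 0.00169) for the double and −0.74 (adjusted p = 0.104) for the single mutants.

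*amotl2a* and *amotl2b* encode angiomotin-like proteins, junctional scaffolds that bind Yap and hold it outside the nucleus. *amotl2a*, on chromosome 4 (27033990 to 27041769; ENSORLG00000015457), had 1067, 1263 and 1158 normalized counts in the double mutants, 1052, 1353 and 1111 in the single mutants, and 2184, 2225, 1863 and 2056 in WT 1 to WT 4. The mutant groups covered almost the same range, below every WT library, and WT 4 was not apart from the other WT libraries. *amotl2a* fell in the double mutants (log2 fold change −0.82, SE 0.18, adjusted p = 0.0476) and in the single mutants (log2 fold change −0.83, adjusted p = 0.0264, SE 0.13). Both calls were close to the threshold. In the double mutants the call was lost without WT 1, WT 2, WT 3, single mutant 3 or any 1 of the double mutants (adjusted p up to 0.106), and in the single mutants without WT 1, WT 2, WT 3 or single mutant 3 (up to 0.149). Without WT 1, WT 2, WT 3 or single mutant 3 the double mutant fold change stayed at −0.82, and what moved was its SE and p-value. The model without the set gave −0.84 (adjusted p = 0.00403) and −0.83 (adjusted p = 0.0199) for double and single mutants.

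*amotl2b*, on chromosome 17 (24693995 to 24707256; ENSORLG00000016273), had 834, 1255 and 1085 normalized counts in the double mutants, 1642, 1900 and 1648 in the single mutants, and 3576, 3593, 2879 and 3348 in WT 1 to WT 4. Here the double mutants lay below the single mutants as well, and the single mutants below WT. The double mutant mean was 31.6% of WT 4 and also 31.6% of the mean of WT 1–3, and the single mutant mean was 51.6% of the mean of WT 1–3. *amotl2b* fell in the double mutants (log2 fold change −1.66, SE 0.21, adjusted p = 0.00556), a call kept in all 9 fits that left out 1 library other than WT 4. It fell in the single mutants too (−0.95, SE 0.16, adjusted p = 0.0330), but without WT 1, WT 2, WT 3, single mutant 1, single mutant 2 or single mutant 3 this call was lost, with adjusted p up to 0.174. Without the set the values were −1.66 (adjusted p = 0.000685) for the double and −0.95 (adjusted p = 0.0219) for the single mutants.

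*lats2*, which encodes a kinase that phosphorylates Yap, lies on chromosome 21 (11512229 to 11543460; ENSORLG00000013186). It had 1902, 2820 and 2988 normalized counts in the double mutants, 3090, 4956 and 4291 in the single mutants, and 8019, 6908, 7510 and 5131 in WT 1 to WT 4. The groups did not overlap, but single mutant 2 had 96.6% of the level of WT 4, the lowest WT library. In the model with the set *lats2* passed the test in neither group. The double mutants differed from WT by −0.997 on the log2 scale (SE 0.27, adjusted p = 0.123) and the single mutants by −0.86 (SE 0.21, adjusted p = 0.131). The value in the double mutants passed without single mutant 1 (adjusted p = 0.0396), with its fold change nearly unmoved at −0.99. It also passed without the set (−1.42, adjusted p = 0.00439), whereas the value in the single mutants did not (−0.74, adjusted p = 0.280). DESeq2, with the set in the model, called *lats2* in the double mutants (adjusted p = 0.0464) and in the single mutants (adjusted p = 0.00682).

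Other models moved the number of the 6 genes called, and the share of all genes called with it. In the double mutants 6 of the 6 were called without the set (24.1% of all genes), 6 with DESeq2 (4.61%), 6 with WT 1–3 as the only control, an alternative added after seeing the data (43.5%), and 1, *yap1b*, when WT 4 and the double mutants were fitted alone (0.552%). In the single mutants 3 were called without the set (0.557%), 5 with DESeq2 (2.67%) and 2, *yap1* and *amotl2b*, when WT 1–3 and the single mutants were fitted alone (0.621%).

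**Figure D2:**
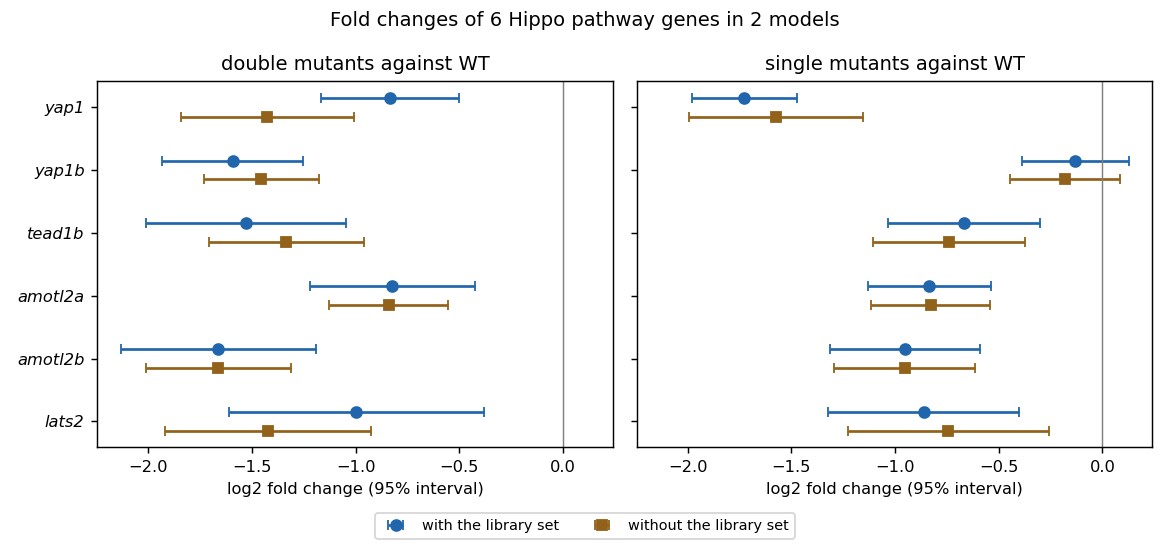
Log2 fold changes with 95% intervals (x axis) of the 6 genes in the double mutants (left) and single mutants (right) against WT, in the model with the library set (circles) and without it (squares). All points lie below 0. The models differ most for *yap1* in the double mutants (−0.83 with and −1.43 without the set), whereas for *amotl2a* and *amotl2b* the points nearly coincide.

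The double mutants were then set against the single mutants. By label the double mutants add yap1b-/- to yap-/-, but the *yap1b* genotype of the single mutants is unstated. In normalized counts every double mutant library was below every single mutant library for *yap1b*, *tead1b*, *amotl2b* and *lats2*, a pattern shown by 18.1% of all genes tested, and the groups overlapped for *yap1* and *amotl2a*. With the set in the model, where each mutant group is first compared with its own WT libraries, none of the 6 genes passed edgeR's test, which 0.0303% of all genes passed. By unadjusted p, 4 of the 6 were under 0.05 in edgeR (*yap1*, *yap1b*, *tead1b* and *amotl2b*), as were 4.61% of all genes, and DESeq2 called *yap1* and *yap1b*, 2 of the 6 where it called 0.872% of all genes. Without the set edgeR called 1 of the 6 and 1.92% of all genes, and with WT 1–3 as the only control 4 of the 6 and 24.7% of all genes. Both of these fits compare the mutants across the sets, so that genotype and set cannot be told apart in them. *yap1b* came closest in edgeR, at −1.46 on the log2 scale (SE 0.19, adjusted p = 0.0594). It passed without the set (−1.27, adjusted p = 0.00239) and when single mutant 1 was left out (adjusted p = 0.0144). The value for *yap1* was 0.90 (SE 0.19, adjusted p = 0.223) with the set and 0.15 (adjusted p = 0.608) without it. For *amotl2b* it was −0.71 in both models, with adjusted p = 0.937 with the set and 0.0509 without it. The value for *tead1b* was −0.86 (adjusted p = 0.663) with the set and −0.59 (adjusted p = 0.0653) without it. For *lats2* the values were −0.13 (95% interval −0.92 to 0.65) with the set and −0.68 (−1.19 to −0.17) without it. For *amotl2a* the difference was 0.01, with a 95% interval of −0.50 to 0.52, and the interval without the set was −0.31 to 0.29.

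Within the groups, double mutant 1 was the lowest double mutant library for 6 of the 6 genes, where it was lowest for 40.1% of all genes tested. Single mutant 1, the library with the fewest reads, was the lowest single mutant library for 5 of the 6, where it was lowest for 41.9% of all genes tested. The part of these libraries in the results beyond the fits that leave them out was not tested.

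Ratios between paralogs inside a library need no scaling between libraries. They are given as log2 ratios of counts, which also depend on gene length, so that only differences between libraries are read from them. In all, 8 comparisons were made with an exact two-sided permutation test, and with 3 against 4 libraries the smallest possible p is 0.0571.

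The log2 ratio of *amotl2b* to *amotl2a* was −0.36, −0.01 and −0.09 in the double mutants, 0.64, 0.49 and 0.57 in the single mutants, and 0.71, 0.69, 0.63 and 0.70 in WT 1 to WT 4. The double mutants stood apart, single mutant 1 lay inside the WT range, and the 4 WT libraries were alike. In the double mutants *amotl2b* took 43.9%, 49.8% and 48.4% of the counts of both genes, against 60.7% to 62.1% in WT, with a 95% Wilson interval of at most 2.44 points to either side, for counting error only. The mean difference from WT was −0.84 in the double mutants (exact p = 0.0571, 0.0914 after Benjamini-Hochberg adjustment) and −0.12 in the single mutants (exact p = 0.114, adjusted 0.152).

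The log2 ratio of *yap1b* to *yap1* was −1.68, −1.83 and −1.81 in the double mutants, −0.52, −0.38 and −0.18 in the single mutants, and −1.95, −2.01, −1.89 and −1.02 in WT 1 to WT 4. In the single mutants *yap1b* thus made up 41.1% to 46.9% of the counts of both genes, against 19.9% to 33.1% in WT, and in the double mutants it made up 22.0% to 23.8%. The mean difference from WT was −0.06 in the double mutants (exact p = 0.914, adjusted 0.914) and 1.36 in the single mutants (exact p = 0.0571, adjusted 0.0914). WT 4 decides the sign in the double mutants, since without it the difference was 0.18. Against WT 4 alone, their control in the model with the set, the double mutants were lower, with a mean of −1.77 against −1.02. The small pooled difference thus does not show an unchanged ratio.

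*tead1b* was compared with *tead1a*, its paralog, which is not among the 6 genes. Their log2 ratio was −2.78, −2.44 and −2.67 in the double mutants, −2.71, −2.55 and −2.60 in the single mutants, and −2.18, −2.34, −2.15 and −1.41 in WT 1 to WT 4. Both mutant groups lay below all WT libraries, with mean differences of −0.61 in the double and −0.60 in the single mutants (exact p = 0.0571 and adjusted 0.0914 for each). Without WT 4 the mean differences were −0.40 in the double and −0.39 in the single mutants. The near-equal differences depend on this shared control. By library set, the double mutants had a mean of −2.63 against −1.41 in WT 4. The single mutants had a mean of −2.62 against −2.34 to −2.15 in WT 1–3. The level of *tead1a* differed too, with means of 3399, 5116 and 5726 normalized counts in double mutants, single mutants and WT. By edgeR it was at −0.32 (adjusted p = 0.528) in the double and −0.28 (adjusted p = 0.473) in the single mutants with the set. Without the set these were −0.75 (adjusted p = 0.0170) and −0.16 (adjusted p = 0.866). Near-equal ratios in the double and single mutants thus do not mean equal levels of *tead1b*.

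For *lats2* and *lats1*, the other Lats kinase gene, the log2 ratio was 3.82, 3.65 and 3.41 in the double mutants, 3.41, 2.87 and 3.18 in the single mutants, and 3.63, 3.48, 3.56 and 3.72 in WT 1 to WT 4. The double mutants overlapped WT and the single mutants lay below it. The mean difference was 0.03 in the double mutants (exact p = 0.80, adjusted 0.914) and −0.45 in the single mutants (exact p = 0.0571, adjusted 0.0914). Without double mutant 1 the difference in the double mutants was −0.07. The level of *lats1* was lower too, at 134, 225 and 282 normalized counts in the double mutants, against 646, 618, 636 and 388 in WT 1 to WT 4. By edgeR *lats1* was at −0.86 (adjusted p = 0.503) in the double mutants with the set and −1.42 (adjusted p = 0.0204) without it. A ratio near that of WT thus does not mean a WT level of *lats2*.

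**Figure D3:**
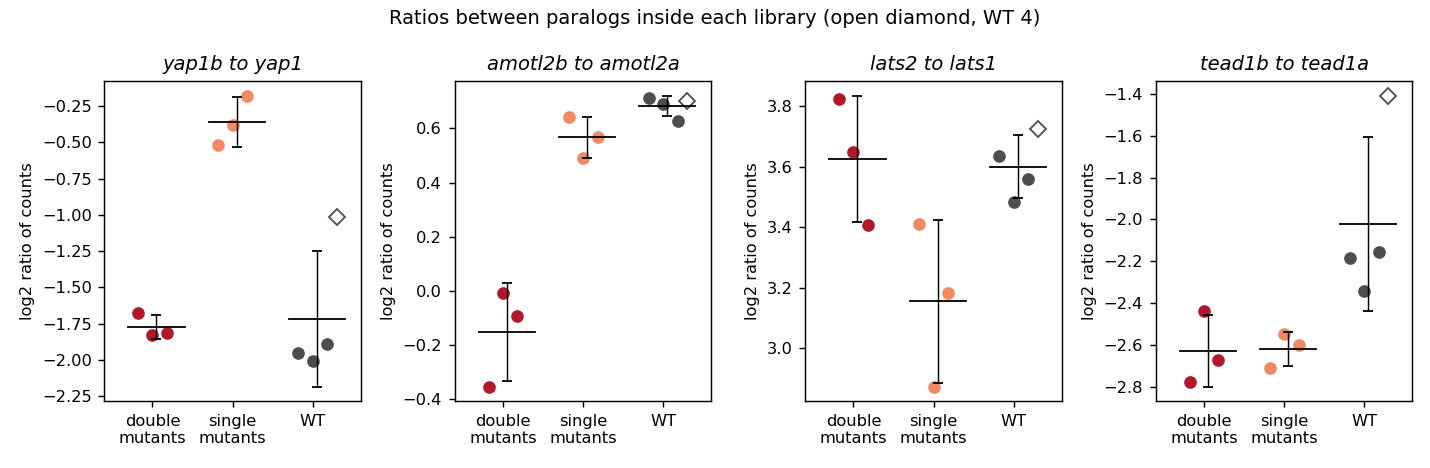
Log2 ratio of the counts of paralogs inside each library (y axes, each with its own range), with the mean (line) and SD (bar) of the double mutants (n = 3), single mutants (n = 3) and WT (n = 4). The ratio of *amotl2b* to *amotl2a* is −0.36 to −0.01 in the double mutants and 0.63 to 0.71 in WT, and that of *yap1b* to *yap1* is −0.52 to −0.18 in the single mutants, above all WT libraries including WT 4 (open diamond).

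Other genes of the pathway and known Yap target genes were taken from lists of 80 symbols, of which 32, the 6 genes included, could be matched to a gene and were tested. The symbols come from tables of the study, which hold mostly genes that it called, so that the counts are not those of the pathway as a whole and nothing is read from their size. In the double mutants 7 of the 32 fell and 0 rose, and in the single mutants 5 fell and 0 rose (edgeR, with the set). Of all genes tested, 2.02% and 0.6% fell. At an unadjusted p under 0.05, 17 were lower and 0 higher in the double mutants, and 16 lower and 2 higher in the single mutants. The share of all genes at this unadjusted p was not computed for these comparisons, so these counts have no background to be set against. DESeq2 called 11 lower in the double and 10 lower in the single mutants, and 0 higher in either. In either direction it called 4.61% and 2.67% of all genes. Without the set 24 fell in the double mutants (13.1% of all genes fell) and 6 in the single mutants (0.521% of all genes fell), and 0 rose in either. At the level of libraries, 26 of the 32 lay below all WT libraries in the double mutants (15.7% of all genes) and 12 in the single mutants (6.03% of all genes). The median log2 fold change of the 32 was −0.84 in the double and −0.53 in the single mutants.

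Among the upstream regulators, such as atypical cadherins of the Fat family and adaptors of the kinases, 0 of 11 passed the test with the set in the double or in the single mutants. Without the set 8 fell in the double mutants, where 13.1% of all genes fell. By unadjusted p, for which no share of all genes was computed, 5 of the 11 were lower in the double and 5 in the single mutants. DESeq2 called 1 lower in each, where it called 4.61% and 2.67% of all genes in either direction. Of the 2 kinases matched, *lats1* and *lats2*, neither passed with the set (1 did by unadjusted p and with DESeq2, in the double as in the single mutants) and both fell in the double mutants without it. Of 3 angiomotins, *amot* had 1180, 1491 and 1655 normalized counts in the double mutants, 2068, 2299 and 2152 in the single mutants, and 3258, 2958, 3036 and 2067 in WT 1 to WT 4. It did not pass with the set, at −0.52 (adjusted p = 0.249) in the double and −0.51 (adjusted p = 0.167) in the single mutants. Without the set it fell in the double mutants (−0.97, adjusted p = 0.00801) and was at −0.38 (adjusted p = 0.609) in the single mutants.

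Of 6 Tead and vestigial-like genes, *tead1b* and *tead4* fell in the double mutants, where 2.02% of all genes fell. *tead4*, another Tead factor, had 382, 590 and 687 normalized counts in the double mutants, 565, 631 and 557 in the single mutants, and 1302, 1208, 1050 and 1498 in WT 1 to WT 4. It fell in the double mutants (log2 fold change −1.44, SE 0.26, adjusted p = 0.0214), a call lost without double mutant 2 (adjusted p = 0.0594), and was at −1.02 (adjusted p = 0.0588) in the single mutants. The single mutant value passed without double mutant 1 or double mutant 3 (adjusted p 0.00944 to 0.0383) and without the set (−1.11, adjusted p = 0.0383), where the double mutants were at −1.19 (adjusted p = 0.00610). Unlike for *tead1b*, the ranges of the double and single mutants overlapped.

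Of 12 target genes, 3 fell in the double and 4 in the single mutants, *amotl2a* and *amotl2b* among them in both. Of all genes tested, 2.02% and 0.6% fell. *ccn1*, which encodes a secreted matrix protein, had 138, 151 and 157 normalized counts in the double mutants, 228, 158 and 154 in the single mutants, and 963, 868, 656 and 906 in WT 1 to WT 4. It fell in the double (log2 fold change −2.61, SE 0.25, adjusted p = 0.00180) and the single mutants (−2.22, SE 0.20, adjusted p = 0.00226). Both calls were kept in all fits that left out 1 library, which for the double mutants was never WT 4. They were also kept without the set (−2.51 in the double and −2.25 in the single mutants). *ccn2a*, of the same family, had 4.80, 31.8 and 37.6 normalized counts in the double mutants, 36.6, 16.7 and 22.2 in the single mutants, and 307, 347, 178 and 160 in WT 1 to WT 4. It fell in the single mutants (−3.51, SE 0.57, adjusted p = 0.0285) and was at −2.68 (adjusted p = 0.0906) in the double mutants. Without the set it fell in both, at −3.31 (adjusted p = 0.00708) in the double and −3.34 (adjusted p = 0.0302) in the single mutants. The call in the single mutants was lost without WT 1, WT 2, WT 3, single mutant 2, single mutant 3 or double mutant 2 (highest adjusted p 0.160).

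**Figure D4:**
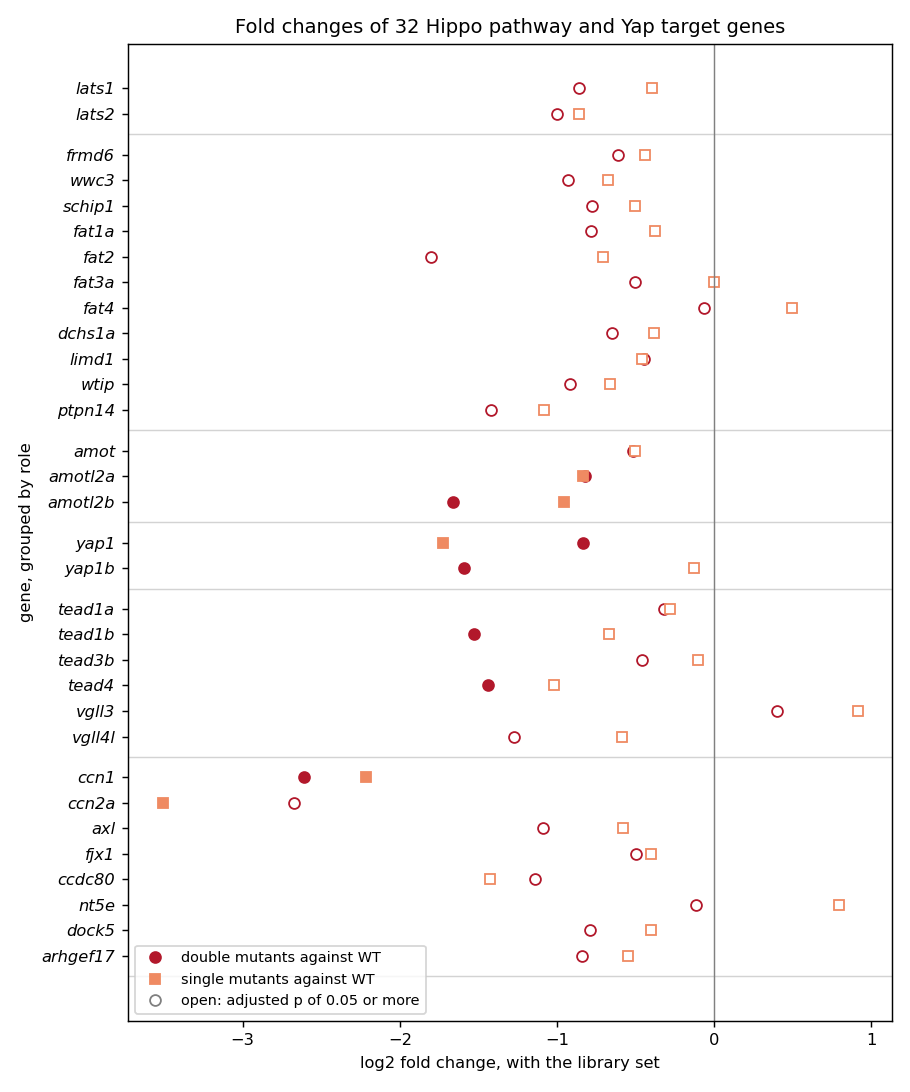
Log2 fold changes (x axis, model with the library set) of 32 genes of the Hippo pathway and Yap targets, grouped by role, in the double mutants (circles) and single mutants (squares) against WT. Filled symbols passed an adjusted p of 0.05, which 7 genes did in the double and 5 in the single mutants, all below 0.

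The genes most like each of the 6 were sought among 1839 genes with a symbol and a mean of at least 50 normalized counts, by Pearson's r of log2 CPM over the 10 libraries. These libraries share genotype groups and sets, so that r is a description only. The symbols come from tables of the study, which hold mostly genes that it called. High r with genes that also differ between the groups is therefore favoured by this choice. The genes named need not be the closest of all genes tested. For *amotl2b* the most like were *wasf2* (r = 0.991), *gata2a* (0.987) and *pard6b* (0.979). For *tead1b* they were *lima1a* (0.989), *wasf2* (0.985) and *col1a1b* (0.984), and for *lats2* they were *itgb4* (0.992), *pcdh12* (0.992) and *ptprk* (0.991). *nexn* came first for both *yap1* (0.970) and *amotl2a* (0.983). It was followed by *kctd15* (0.968) and *adamtsl5* (0.961) for *yap1*, and *cdk6* (0.973) was also among those for *amotl2a*. For *yap1b* they were *ca15b* (0.978), *limk1a* (0.977) and *bcl6aa* (0.977). *ca15b* had 1070 to 1151 normalized counts in the double mutants, 3771 to 4690 in the single mutants, against 5873 to 6178 in WT.

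*gata2a*, one of the genes most like *amotl2b* among those searched, is a marker of non-neural ectoderm, the future epidermis. The sum of 4 of 4 markers of that tissue (*tfap2a*, *gata2a*, *tp63* and *foxi1*) was 10698 to 11622 normalized counts in the double mutants, 12531 to 13591 in the single mutants, against 17694 to 19458 in WT, with WT 4 highest and no marker at 0. Thus in this sum the groups lay in the same order of normalized counts as for *amotl2b*, *tead1b* and *lats2*. So they did for *gata2a* (2772 to 3394, 4167 to 4816 and 7233 to 7923 in double mutants, single mutants and WT) and *tp63* (1185 to 1450, 1544 to 1800 and 2757 to 2966). For *foxi1* the mutant groups overlapped. For *tfap2a* (5481 to 6580, 6007 to 6267 and 6406 to 8305) the double mutants overlapped both the single mutants and WT. Normalized counts are not adjusted for the set, so between the mutant groups these orders cannot tell genotype from set. With the set, double against single mutants were at −0.71 (SE 0.27) for *amotl2b* and −0.86 (SE 0.28) for *tead1b*. For *lats2* the value was −0.13, within its SE of 0.35. The share of all genes in the full order of double mutants, single mutants and WT was not computed. The sum of 2 of 2 neural plate markers was 8694 to 10511 in the double mutants and 7984 to 9402 in the single mutants, against 6795 to 8005 in WT. Most of it was *sox3* (7780 to 9630 in the double and 6572 to 7916 in the single mutants, against 5499 to 7195 in WT). *otx2b* had 881 to 970 in the double mutants, inside the WT range of 810 to 1405, and 1412 to 1510 in the single mutants. The sum of 4 of 4 mesoderm markers was 16690 to 24878, 16698 to 22221 and 14590 to 17082 in double mutants, single mutants and WT, and that of 3 of 3 endoderm markers 5425 to 5942, 6244 to 6601 and 5228 to 6585. Most of the mesoderm sum in the double mutants came from *cdx4* (9657 to 16320, against 5840 to 9804 in WT), whereas *tbxta* (1748 to 2320, against 2161 to 4128 in WT) and *gsc* (1037 to 1138, against 1091 to 2056 in WT) lay around the level of WT 4, the lowest WT library for both. The germ cell marker *ddx4* had 936 to 1273 in the double mutants and 1139 to 1856 in the single mutants, against 1576 to 2053 in WT, and *myod1*, a marker of later muscle, had at most 4 reads in any library. The part of a changed share of non-neural ectoderm or of other tissues in the levels of the 6 genes was not tested.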

How the data were processed

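RNA of stage 16 embryos of 1 genotype was pooled per library by the authors and sequenced. According to the methods of the study, the authors trimmed the reads with Trimmomatic, removed ribosomal reads with sortmerna, mapped with HISAT2 to ASM223467, kept reads of high mapping quality with SAMtools and counted them per gene with htseq-count and an Ensembl annotation. What was deposited are the raw counts, with no normalization or batch correction, and the later ComBat and DESeq2 steps of the study are not in them. Reads in no gene or in several genes, as deposited, were left out of library sizes and tests (10.6% to 11.3% and 7.94% to 9.86% of all reads in the table). Discarding reads that map to several places can lower the counts of near-identical paralogs.

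Genes averaging 10 or more reads per library were tested with edgeR 4.0.16 in R 4.3.3 (TMM normalization, quasi-likelihood test, genotype and library set as terms, all 10 libraries in 1 fit), with Benjamini-Hochberg adjustment over all genes tested, and adjusted p under 0.05 was called. Normalized counts are counts divided by the TMM-scaled library size relative to its mean, and a prior count of 2 was added for log2 CPM. At the lowest count of any of the 6 genes, 361 reads, the counting error was 5.26%. The library set was read from marker values in the source data of the study and so rests on expression values and on no label. The double mutants have 1 control library in this model, whose spread is assumed to be that of the others. Ratios of paralogs were tested with scipy 1.17.1, and the fits were tested on simulated data first.

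The 6 genes, the gene lists and the tests were chosen with earlier results of these data known. The genes named are the 6, every gene of the lists that passed the test in any comparison, and for each of the 6 the 3 genes with the highest r, of which 1 is not reported here. *lats1* and *tead1a* were added as paralogs in the ratios, *amot* was added after its values were seen, and the marker genes came from a fixed list. Symbols come from the tables of the study (2210 identifiers) and coordinates from RefSeq by NCBI gene. Alternatives were the model without the set, RLE normalization, DESeq2 1.42.0, no filter on low counts, the replicate number as a block, 1 set alone and leaving out each library. WT 1–3 as the only control was added after seeing the data. Sequences of the 6 genes, their promoters and proteins were not used here.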

Additional observations from a re-analysis of the deposited data

Results flagged for a closer look

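*yap1* in WT 4 was far from the other WT libraries, at 5470 normalized counts against 9028 to 9358, a gap of 0.915 of the range of the group. The log2 ratio of *yap1b* to *yap1* in WT 4 was flagged in the same way, at −1.02 against −2.01 to −1.89, with a gap of 0.882 of the range, and it shares the *yap1* count behind the first value. In all, 10 groups of 4 WT values were looked at, and chance flags about 1 in 20. The double mutants, which share the library set with WT 4, had 2707 to 3356 normalized counts of *yap1*.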

How the results depend on the processing

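For the 6 genes, the direction and the side of the threshold were the same in 74 of 96 comparisons of an alternative with the main result for the double mutants against WT and in 83 of 96 for the single mutants. Genes called in the single mutants numbered 440 with DESeq2, 5 of the 6 among them. In the double mutants 4 of the 6 were called with RLE normalization, among 359 genes called, and 4 without the filter on low counts, among 386. In both the call of *amotl2a* was lost (edgeR, adjusted p = 0.0527 and 0.0546). In the double mutants calls numbered 3982 without the set, 730 with DESeq2, 90 in 1 set alone (1 of the 6), and 7182 with WT 1–3 as the control. Between double and single mutants they numbered 317 without the set (1 of the 6), 141 with DESeq2 (2 of the 6) and 4081 with WT 1–3 as the control (4 of the 6). The residuals of libraries with equal replicate numbers correlated at −0.19 to 0.23 between double mutants and WT, −0.01 to 0.18 between single mutants and WT and 0.02 to 0.49 between the mutants. Those with unequal numbers correlated at −0.26 to 0.25, −0.21 to 0.13 and −0.41 to 0.36, in the same order. These ranges overlap, though between the mutants the highest r was of equal numbers. Whether the replicate numbers pair the libraries was not tested. With the replicate number as a block in place of the set, 7495 genes were called in the double mutants and 4398 between the mutants (4 of the 6). WT 4 is the only library with replicate number 4, so this fit gives it a term of its own. The control under the block is thus WT 1–3, without the set, and the block is not a separate check from the fit with WT 1–3 as the control. The mean difference of the double mutants from WT in the log2 ratio of *yap1b* to *yap1* was then 0.18. Leaving out each library gave 26 to 172 calls in the single mutants (1 to 3 of the 6), 213 to 574 in the double mutants (3 to 6 of the 6) and 0 to 15 between the mutants (0 to 1 of the 6). The mean differences of the double mutants from WT in log2 ratio moved as well. They ranged from −0.15 to 0.18 for *yap1b* to *yap1* and from −0.0720 to 0.136 for *lats2* to *lats1*. Between the mutants, *amotl2a* turned to −0.0123 without the set, −0.00745 under the block and −0.0119 with WT 1–3 as the control, and ranged from −0.0349 to 0.128 with each library left out, and *lats2* from −0.279 to 0.0625. The causes were not tested. WT 4 cannot be left out of the double mutant comparison with the set, and a planned search for Tead motifs in promoters was not run.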
